A study of Mus musculus with 3 samples.

Results

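Inhibitory receptors and their activating counterpart CD226 were followed through the RNA of CD4+ T cells taken either from lymphoid organs or from a tumour. The 10 genes are Tigit, Lag3, Ctla4, Pdcd1, Havcr2, Cd160, Btla, Cd200, Cd96 and Cd226, picked by symbol out of 23337 gene symbols, and each of the 10 has a single row in the deposited tables. All mice were wild-type C57/Bl6j, 7 weeks old, and every library carries the cell type label Th1, the T helper subset that makes interferon gamma. The lymphoid group holds 2 libraries, titled as spleen but with a tissue label that joins spleen, lymph nodes and draining lymph nodes, and the tumour group holds 1 library of cells from B16-F10, a transplantable mouse melanoma. The labels name no marker or gate that defined the Th1 cells and do not say whether animals were pooled or whether the lymphoid libraries came from separate animals, so a p-value reflects how far these libraries scatter, and that scatter may be technical.

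CD226 (DNAM-1) is a costimulatory receptor that binds CD155, encoded by Pvr, and Nectin-2 on other cells. TIGIT and CD96 bind CD155 as well and compete with CD226 for it, and TIGIT also carries an inhibitory motif in its tail. The remaining members work by related routes, and Cd200, which encodes a ligand, is counted with the receptors below. CTLA-4 takes the ligands CD80 and CD86 away from the costimulatory receptor CD28, PD-1 (Pdcd1) binds PD-L1, LAG-3 binds MHC class II, BTLA and CD160 bind HVEM (Tnfrsf14), TIM-3 is the product of Havcr2, and CD200 is a ligand that calms myeloid cells through its receptor CD200R. Many of these genes are switched on by T cell receptor signalling, so a higher level is found on recently activated, regulatory and chronically stimulated T cells alike.

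The values are FPKM, fragments per kilobase of transcript and per unit of sequencing depth, a unit inferred from the tables. Depth was estimated from the smallest steps between low values at about 11480000 and 15630000 fragments in lymphoid libraries 1 and 2 and 3270000 in the tumour library. Every level below is FPKM after median-of-ratios scaling, in which each library is divided by its typical gene (size factors 1.29, 1.33 and 0.58). A log2 change is the difference on log2(scaled FPKM + 1), tumour minus the mean of the lymphoid pair, which understates changes of low genes. A gene is called at a limma adjusted p under 0.05 over the 9800 genes whose deposited values averaged at least 1 FPKM across the libraries. With 1 residual degree of freedom, the error of this test comes from the lymphoid pair, drawn by limma towards a trend over all tested genes. The lone tumour library is assumed to vary as the lymphoid pair does. Beside each receptor call therefore stands the adjusted p of a fit that adds the tumour library's own estimated counting error. T cell identity genes were present in every library. The 10 of 12 listed that had a row summed to 883 scaled FPKM in each lymphoid library and 833 in the tumour library, with 0 of them called by limma (0 at an unadjusted p under 0.05), Cd4 was at 67.9, 59.3 and 73.9 and Cd3e at 126.1, 106.0 and 111.2.

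Of the 10 receptor genes, 9 passed the filter on low values. Tigit, Lag3, Ctla4 and Cd200 rose in the tumour library, none of the 9 fell past the threshold, and Pdcd1, Cd160, Btla, Cd96 and Cd226 were not called. Among all tested genes 12.7% were called higher and 9.17% lower, 21.9% in all. At an unadjusted limma p under 0.05, 1 of the 9 (Cd226) was lower. The fit with counting error gave 3 receptors higher and 0 lower, where it called 3.57% of genes higher and 0.31% lower. The median log2 change of the 9 was 0.08, where the median over all tested genes was -0.01, so the middle of the set lay near that of all genes. The order of the genes changed with them. In both lymphoid libraries Cd226 was the most abundant and Cd96 the next, while Tigit ranked 6 of 10. In the tumour library Tigit ranked 1 and Ctla4 ranked 2, ahead of Cd226 and Cd96. Among the lymphoid levels, adjacent genes from Cd160 through Btla and Ctla4 to Tigit overlapped between libraries. Of the pairs that were not adjacent, both Cd160 values lay above those of Ctla4 and Tigit, and both Btla values above those of Tigit. Cd226, Cd96 and the genes below Tigit lay apart from their neighbours.

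**Figure D1:**
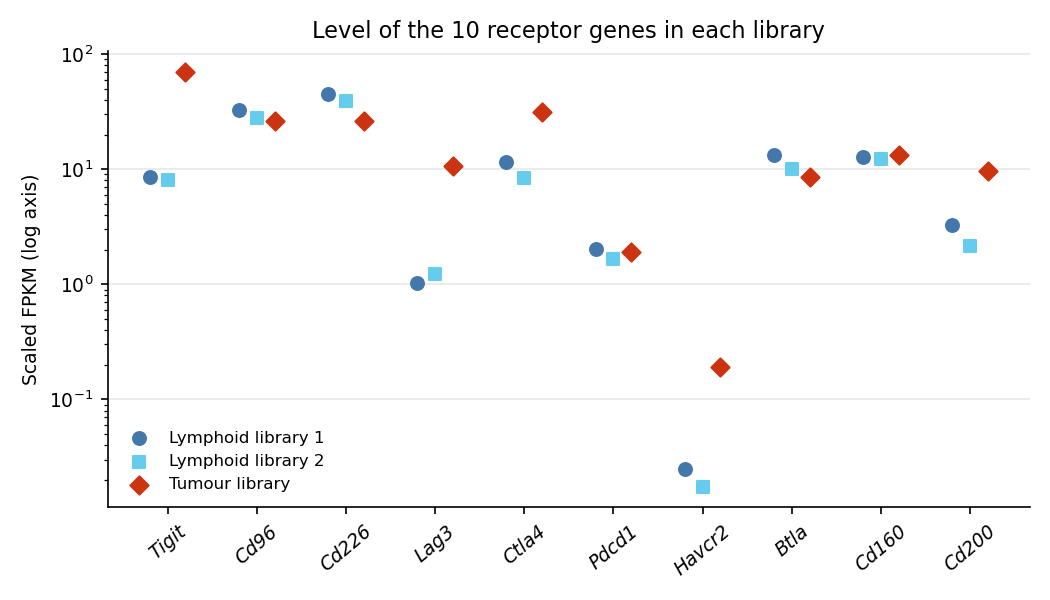
Scaled FPKM (log axis) of the 10 receptor genes, 1 point for each library. The tumour point lies above both lymphoid points for Tigit, Lag3, Ctla4 and Cd200, from 3.17-fold (Ctla4) to 9.53-fold (Lag3) over their mean. It also lies just above both for Cd160 (13.34 against 12.76 and 12.35), which was not called. The same holds for Havcr2, which rests on about 1 fragment in every library.

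Start-site sequences are shown for 3 genes of the set that rose, Tigit, Cd200 and Ctla4, and for Cd96, a CD155 receptor that was not called, so that the letters near their starts can be set beside each other. They come from RefSeq (GRCm38.p6) and run 5′ to 3′ from 250 bases before to 50 bases after the start. Windows were taken for 8 of the 10 genes. Lag3 and Cd226 were left without one here, which does not show that RefSeq lacks an entry for them. The Tigit window is chr16:43664135-43664434 (minus strand), that of Cd200 chr16:45409004-45409303 (minus strand), that of Ctla4 chr1:60908775-60909074 (plus strand) and that of Cd96 chr16:46120199-46120498 (minus strand). Capitals mark the NFAT core GGAAA on either strand.
Tigit: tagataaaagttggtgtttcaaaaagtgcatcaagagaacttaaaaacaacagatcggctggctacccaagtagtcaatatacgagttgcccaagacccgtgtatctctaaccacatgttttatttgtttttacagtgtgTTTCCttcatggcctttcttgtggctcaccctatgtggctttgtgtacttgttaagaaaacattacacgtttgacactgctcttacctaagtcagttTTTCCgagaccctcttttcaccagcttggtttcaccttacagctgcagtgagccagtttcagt
Cd200: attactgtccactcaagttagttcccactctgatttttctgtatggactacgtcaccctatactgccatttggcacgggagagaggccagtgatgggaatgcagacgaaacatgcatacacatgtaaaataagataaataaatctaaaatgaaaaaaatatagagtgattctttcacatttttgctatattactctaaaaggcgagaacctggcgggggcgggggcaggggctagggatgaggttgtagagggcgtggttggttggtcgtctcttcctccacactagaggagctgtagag
Ctla4: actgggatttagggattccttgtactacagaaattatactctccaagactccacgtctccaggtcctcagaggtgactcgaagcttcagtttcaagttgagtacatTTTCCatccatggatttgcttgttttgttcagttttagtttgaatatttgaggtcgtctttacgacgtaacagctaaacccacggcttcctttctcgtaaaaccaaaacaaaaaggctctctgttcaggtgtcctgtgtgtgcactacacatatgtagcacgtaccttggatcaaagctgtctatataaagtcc
Cd96: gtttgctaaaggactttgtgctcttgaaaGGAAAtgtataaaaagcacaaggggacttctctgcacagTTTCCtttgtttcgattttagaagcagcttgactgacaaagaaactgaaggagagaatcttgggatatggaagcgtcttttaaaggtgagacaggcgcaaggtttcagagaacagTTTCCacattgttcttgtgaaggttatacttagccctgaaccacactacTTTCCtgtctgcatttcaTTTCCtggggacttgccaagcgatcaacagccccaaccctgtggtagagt
The core GGAAA, which NFAT factors downstream of the T cell receptor recognise, was found at 2 places in the Tigit window, 1 in Ctla4, 0 in Cd200 and 5 in Cd96, and 61.3% of 32851 such windows in the table hold it. On both strands, the AP-1 motif TGANTCA (7.81% of windows), the CRE TGACGTCA (1.79%), the NR4A motif AAAGGTCA (1.51%) and the T-box motif AGGTGTGA (1.28%) had 0 matches in these 4 windows. A match is a description of letters and not a bound site.

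Within the CD226 axis Tigit rose, while Cd96 and Cd226 were not called. Tigit (ENSMUSG00000071552.5, chromosome 16, 43648867 to 43664146, GRCm38) was at 8.59 and 8.06 scaled FPKM in the lymphoid libraries and at 70.7 in the tumour library. The lymphoid values lay close together and the tumour value far above both. The mean of 8.32 ± 0.374 (SD, n = 2) thus rose 8.49-fold, or by 2.94 ± 0.17 (SE) on the log2 scale (limma adjusted p = 0.000707, and 0.00443 with counting error added). The tumour value rests on an estimated 123 fragments. Cd226 (ENSMUSG00000034028.16, chromosome 18, 89176967 to 89272229) went the other way without passing the threshold. It was at 45.4 and 39.4 scaled FPKM in the lymphoid libraries and at 26.3 in the tumour library, below both. Its log2 change was -0.66 ± 0.19 (SE), with a 95% interval from -1.14 to -0.19 (limma adjusted p = 0.0625, and 0.221 with counting error added). Cd96 (ENSMUSG00000022657.9, chromosome 16, 46035657 to 46120251), which encodes the other CD155 receptor, was at 32.6 and 27.9 and at 26.3 scaled FPKM, the tumour value just under the lower lymphoid one. Its log2 change of -0.19 had an interval from -0.66 to 0.29 (limma adjusted p = 0.522). A tumour value below both lymphoid ones was found for 42.6% of all tested genes and one above both for 41.3%, so the position alone says little for any 1 gene.

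Ratios within a library need no scaling between libraries. For 1 Cd226 FPKM there was 0.189 of Tigit in lymphoid library 1, 0.204 in lymphoid library 2 and 2.68 in the tumour library. The 95% counting intervals (exact Clopper-Pearson, from estimated fragments) ran from 0.156 to 0.227, from 0.173 to 0.240 and from 2.14 to 3.36. Tigit thus passed from a minor to the leading transcript of the pair, and its ratio to Cd226 was 13.7 times the lymphoid mean of 0.197 ± 0.0109 (SD, n = 2). The ratio of Cd96 to Cd226 moved far less, from 0.717 and 0.707 to 1.00 (interval 0.788 to 1.26), which is 1.41 times the lymphoid mean. Tigit set against Cd96 went from 0.264 and 0.289 to 2.68, or 9.71 times the mean. Taking the 3 receptors as a whole, Tigit made up 9.9% and 10.7% of their summed FPKM in the lymphoid libraries and 57.3% in the tumour library. Cd226 went from 52.5% and 52.3% to 21.4%, and Cd96 from 37.6% and 37.0% to 21.4%. Exact permutation of 2 values against 1 cannot give a one-sided p below 0.333, so these ratios carry no test. The intervals cover counting error only and lean on annotated transcript lengths.

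**Figure D2:**
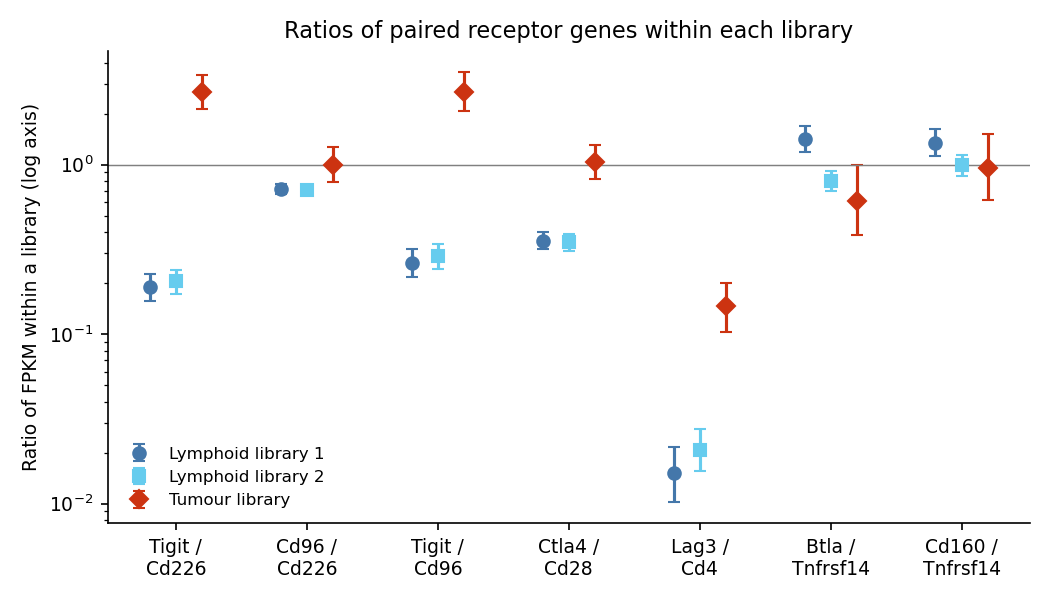
Ratio of FPKM between paired receptor genes within each library (log axis), where bars are 95% counting intervals from estimated fragments. The tumour ratio stands above both lymphoid ratios for 5 pairs, from 1.41 times their mean for Cd96 to Cd226 up to 13.7 times for Tigit to Cd226, and below both for Btla and Cd160 to Tnfrsf14.

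The ligands of this axis are mostly made by other cells. Pvr, encoding CD155, was at 4.57, 4.11 and 3.79 scaled FPKM, with a log2 change of -0.16 that was not called (limma adjusted p = 0.498). Nectin2, listed under its older symbol Pvrl2, was at 0.034 and 0.042 and at 1.87 in the tumour library, on about 9.7 fragments, and it did not pass the filter. Fragments in genes of that kind weighed more in the shallow tumour library. The 1419 odorant and vomeronasal receptor genes, which T cells have no known use for, averaged 0.0335 and 0.0673 scaled FPKM in the lymphoid libraries and 0.472 in the tumour library, with 15.6%, 59.4% and 41.7% of them above 0. The part of this background in the low genes was not tested.

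Lag3 and Ctla4 rose as well. Lag3 (ENSMUSG00000030124.2, chromosome 6, 124904361 to 124911705) was at 1.03 and 1.24 scaled FPKM in the lymphoid libraries and at 10.8 in the tumour library, 9.53-fold above the mean. This is the largest linear fold among the tested receptors, from a low start. The log2 rise was 2.47 ± 0.15 (SE; limma adjusted p = 0.000837, and 0.00999 with counting error added), on about 40.8 tumour fragments. Ctla4 (ENSMUSG00000026011.13, chromosome 1, 60887000 to 60915832) was at 11.5 and 8.40 scaled FPKM and at 31.6 in the tumour library. The lymphoid libraries differed more here than for Tigit, yet the tumour value was well above the higher of them. The log2 rise was 1.59 ± 0.22 (SE; limma adjusted p = 0.00812, and 0.0365 with counting error added). The call of Ctla4 ended with values as deposited (adjusted p = 0.0982) and without the filter (adjusted p = 0.108), whereas Tigit and Lag3 were called in every setting that tested them, with adjusted p up to 0.0148 and 0.0251.

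Pdcd1 was not called, and Havcr2 was too low to measure. Pdcd1 (ENSMUSG00000026285.7, chromosome 1, 94038305 to 94052553), which encodes PD-1, was at 2.02 and 1.66 scaled FPKM and at 1.92 in the tumour library, between the lymphoid values. Its log2 change of 0.05 had an interval from -0.37 to 0.46 (limma adjusted p = 0.869) and rests on about 7.0 tumour fragments. Havcr2 (ENSMUSG00000020399.14, chromosome 11, 46454935 to 46481255) was at 0.0319, 0.0232 and 0.111 FPKM as deposited. At its annotated length each of these corresponds to about 1.0 fragment, under the floor of 3 fragments, so no fold is given and TIM-3 RNA was not measurable at this depth. Without the filter Havcr2 was called higher (limma adjusted p = 0.0200), on those single fragments. No change of Pdcd1 was detected beside the higher Tigit, Lag3 and Ctla4 RNA. The Pdcd1 interval leaves out the counting error of its few tumour fragments (limma adjusted p = 0.969 with that error added). A change of Pdcd1 could thus have been missed at this depth.

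The receptors of HVEM were close to their lymphoid levels. Cd160 (ENSMUSG00000038304.14, chromosome 3, 96798763 to 96829351) was at 12.8 and 12.3 scaled FPKM and at 13.3 in the tumour library. The log2 change was 0.08, with an interval from -0.32 to 0.48 (limma adjusted p = 0.751). Btla (ENSMUSG00000052013.15, chromosome 16, 45224315 to 45257670) was at 13.4 and 9.99 and at 8.51, below both lymphoid values but by less than the gap between them. Its log2 change of -0.40 had an interval from -0.94 to 0.13 (limma adjusted p = 0.232). Tnfrsf14, the shared ligand, was at 9.47, 12.5 and 13.9 scaled FPKM and was not called (limma adjusted p = 0.311). Within the libraries, Btla was at 1.42 of the Tnfrsf14 FPKM in lymphoid library 1 (interval 1.19 to 1.69), at 0.800 in lymphoid library 2 (interval 0.698 to 0.919) and at 0.613 in the tumour library (interval 0.386 to 0.989). Cd160 was at 1.35 and 0.988 of Tnfrsf14 and at 0.961 in the tumour library (interval 0.617 to 1.53). Both tumour ratios lay below both lymphoid ones, with intervals that reach those of lymphoid library 2.

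Cd200 (ENSMUSG00000022661.14, chromosome 16, 45382135 to 45409053) was at 3.28 and 2.14 scaled FPKM in the lymphoid libraries and at 9.72 in the tumour library. Both lymphoid values lay well below the tumour one. The log2 rise was 1.55 ± 0.22 (SE; limma adjusted p = 0.00830). The call ended in the fit with counting error (adjusted p = 0.0598), with values as deposited (adjusted p = 0.0681) and without the filter (adjusted p = 0.121). Its receptor gene Cd200r1, also transcribed in T cells, was at 2.90, 3.38 and 3.79 and was not called (limma adjusted p = 0.376).

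The place of a gene among all tested genes of its own library depends on no scaling factor either. Tigit lay above 69.9% and 67.2% of tested genes in the lymphoid libraries and above 96.4% in the tumour library. Lag3 moved from 5.6% and 9.8% to 75.4%, the longest way of the 9. Ctla4 moved from 78.2% and 68.6% to 92.7%, and Cd200 from 35.6% and 23.4% to 72.4%. Cd226 stood at 95.4% and 94.3% and at 90.9% in the tumour library, and Cd96 at 93.5% and 91.6% and likewise at 90.9%, so both were abundant transcripts in each library. Btla moved from 81.9% and 73.6% to 68.2%, and Pdcd1 from 20.7% and 16.5% to 15.6%. Cd160 stood at 80.7% and 79.0% and at 80.7%.

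**Figure D3:**
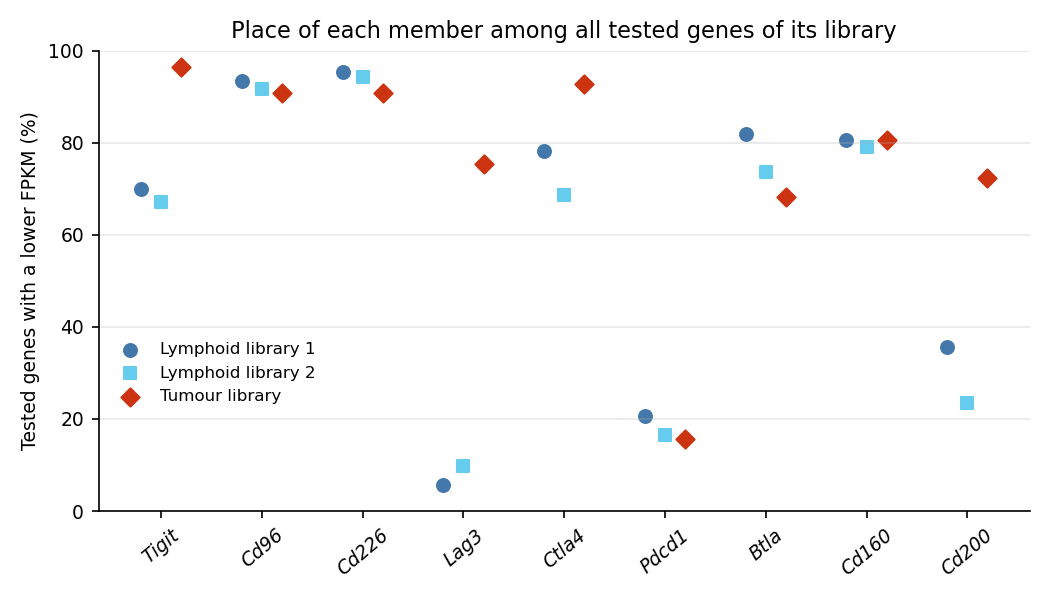
Share of the 9800 tested genes with a lower FPKM than each of the 9 tested receptor genes, in %, 1 point for each library. Tigit, Lag3, Ctla4 and Cd200 stand higher in the tumour library than in either lymphoid library, and Cd226 moved from 95.4% and 94.3% to 90.9%.

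Scaling decides the direction of the uncalled receptors. As deposited, where the median gene was lower in the tumour library by a log2 change of -0.96, Pdcd1, Cd160, Btla, Cd96 and Cd226 were called lower, as were 77.8% of all tested genes. Tigit and Lag3 were still called higher there, where 4.74% of genes were, with log2 changes of 1.81 and 1.54. With library totals, where the median gene was higher by 0.65, Btla, Cd96 and Cd226 had log2 changes of 0.30, 0.57 and 0.09. Cd160 was called higher there (0.81, limma adjusted p = 0.0359), as were 4370 of the 9800 tested genes. Size factors taken from all rows moved the median gene to -0.25 and gave Cd226 a called log2 change of -0.95 (limma adjusted p = 0.0236). In that setting 1926 of the 9800 tested genes were called lower.

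Positions in the genome group several of the receptors. Tigit, Btla, Cd200 and Cd96 lie in 1 stretch of chromosome 16 that is 2471.4 kb long (43648867 to 46120251, GRCm38), with 29 other protein-coding genes of the tables between them. Of these 29, 14 were tested, and 2 were called higher (Naa50 and Plcxd2, named after their values were seen) and 0 lower, where 12.7% of all tested genes were called higher, with log2 changes from -0.48 to 0.88. Tigit at the lower end and Cd200 in the interior rose by more than any of the 14, while Btla, 124.5 kb from Cd200, and Cd96 at the upper end were not called. The stretch thus did not move as a block. On chromosome 1, Cd28, Ctla4 and Icos lie side by side (60716800 to 61000320). Cd28, which shares its ligands with CTLA-4, was at 32.4, 24.1 and 30.4 scaled FPKM and was not called (log2 change 0.12, limma adjusted p = 0.748). Icos, the neighbour of Ctla4 on its other side, was called higher (log2 change 1.21, limma adjusted p = 0.0133, and 0.0507 with counting error added). The ratio of Ctla4 to Cd28 was 0.356 and 0.349 in the lymphoid libraries and 1.04 in the tumour library (interval 0.825 to 1.30). On chromosome 6, Lag3 is the neighbour of Cd4, with 16139 bases between the annotated genes on the same strand. Cd4 was not called (log2 change 0.22, limma adjusted p = 0.474), and the ratio of Lag3 to Cd4 went from 0.0151 and 0.0208 to 0.146. The ratios to Cd28, Cd4 and Tnfrsf14 were chosen after values had been seen.

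**Figure D4:**
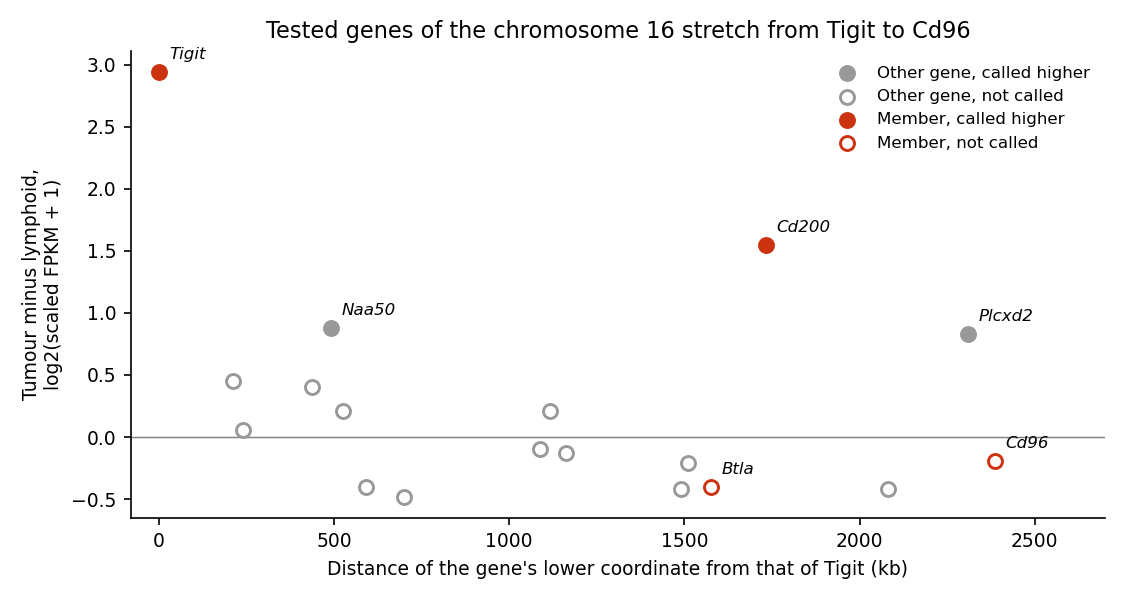
Log2 change, tumour minus lymphoid, of the 18 tested genes from Tigit to Cd96 on chromosome 16 against their distance from Tigit in kb, where filled points were called higher. Tigit (2.94) and Cd200 (1.55) stand above the other 14 tested genes, and Btla (-0.40) and Cd96 (-0.19) lie among them.

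Around the receptors, 4 lists of related genes were read in the same fit, and lower calls were 0 in each. For the first 2 lists the 1 higher call of each is a share near the 12.7% of all tested genes called higher. At an unadjusted limma p under 0.05, 1 other inhibitory receptor was lower, and 0 in the remaining lists. Of 8 tested ligands and partners 1 was called higher and 0 lower. The called one was Cd274, which encodes PD-L1, at 5.58, 5.53 and 9.42 scaled FPKM (log2 change 0.67, limma adjusted p = 0.0316, and 0.230 with counting error added). Its call also ended with the filter raised to 5 FPKM (adjusted p = 0.0627) and with size factors from all rows (adjusted p = 0.0934), and its direction turned with values as deposited (-0.36). The list's median was 0.27. Of 7 tested other inhibitory receptors 1 was called higher and 0 lower, with a median of -0.16. This was Lilrb4a, listed as Lilrb4, an inhibitory receptor of the Ig-like family, at 1.28, 0.928 and 14.9 scaled FPKM (log2 change 2.92, limma adjusted p = 0.000769, and 0.00860 with counting error added). It has a closely similar neighbour gene, so the assignment of its fragments is uncertain.

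Costimulatory receptors had 4 higher and 0 lower calls among 11 tested genes, a share of 36.4% against 12.7% of all genes called higher, with a median of 0.32. Tnfrsf9, which encodes 4-1BB, was at 3.34, 3.18 and 10.98 scaled FPKM (log2 change 1.49, limma adjusted p = 0.00251, and 0.0383 with counting error added). Icos was at 19.1, 15.5 and 41.0 (log2 change 1.21, limma adjusted p = 0.0133, and 0.0507 with counting error added), a call that also ended as deposited (adjusted p = 0.743) and without the filter (adjusted p = 0.0983). Tnfrsf18 and Tnfrsf4, encoding GITR and OX40 and named after their values were seen, had log2 changes of 1.03 and 0.85, and both calls ended in the fit with counting error (adjusted p = 0.124 and 0.293). That of Tnfrsf18 also ended without the filter (adjusted p = 0.139), with the filter raised to 5 FPKM (adjusted p = 0.0649) and with size factors from all rows (adjusted p = 0.0537). With values as deposited their directions turned (-0.12 and -0.19). With counting error added, 1 of the 11 (Tnfrsf9) stayed called higher, where 3.57% of all genes were. Cd226 and Cd28 were called in neither fit. Of 20 signalling and trafficking genes 0 were called by limma, with a median of -0.12 and log2 changes from -0.43 to 0.61, and 0 were called with counting error added. At an unadjusted limma p under 0.05, 1 of the 20 was higher and 0 lower. The most abundant of them by its mean over the libraries, Itgb2, a chain of the integrin LFA-1 with which CD226 associates, was at 89.3, 103.9 and 75.1 scaled FPKM (limma adjusted p = 0.272).

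**Figure D5:**
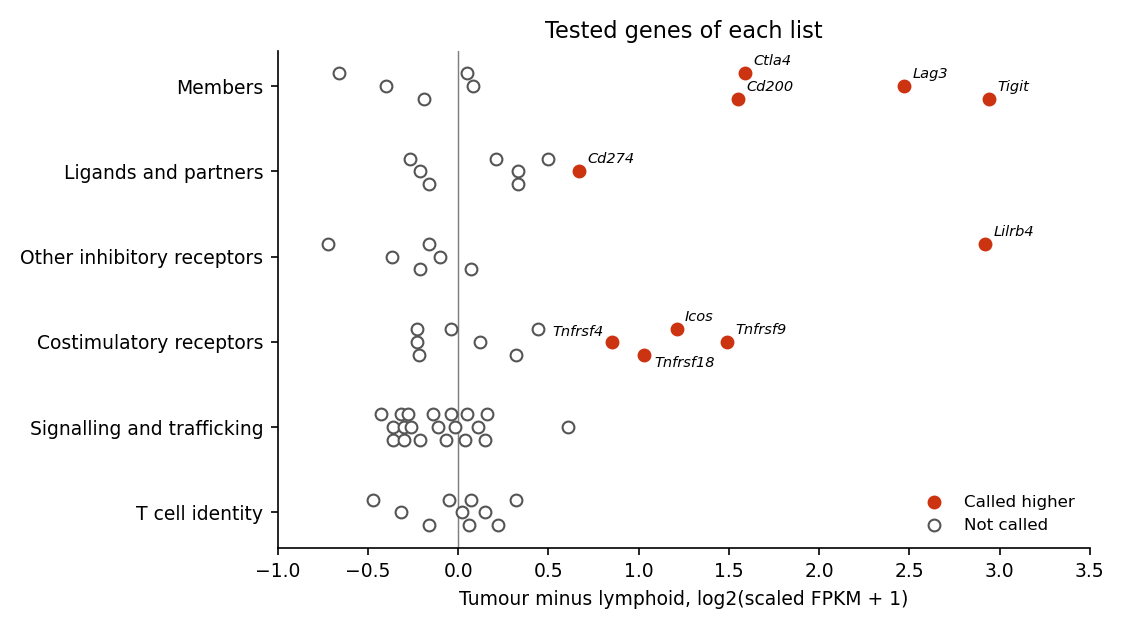
Log2 change, tumour minus lymphoid, of each tested gene in the receptor set, 4 lists of related genes and the T cell identity list, where filled points were called higher. Filled points are found among the receptors (4 of 9), ligands (1 of 8), other inhibitory receptors (1 of 7) and costimulatory receptors (4 of 11).

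Other cell types that use these receptors were followed through their markers, all as scaled FPKM. In bulk RNA, a smaller share of cells of a type and less RNA per cell cannot be told apart. Regulatory T cells carry high CTLA-4 and TIGIT, and their 7 markers summed to 46.0 and 40.3 in the lymphoid libraries and 36.8 in the tumour library. Foxp3, their defining gene, was at 11.3 and 8.93 and at 5.08, a called fall (log2 change -0.86, limma adjusted p = 0.0309) that was no longer called in the fit with counting error (adjusted p = 0.220). The 7 markers did not move together, and their median log2 change was 0.0. Besides Foxp3, 1 marker (Gpr83) was called higher, where 12.7% of all tested genes were higher and 9.17% lower. The tumour value lay above both lymphoid values for 3 markers, below both for 3 and between them for 1. Both CD8 markers summed to 0.558 and 0.814 and to 5.27 in the tumour library, of which Cd8a made 0.503 on about 3.0 fragments and Cd8b1 4.77, after 0.494 and 0.783 in the lymphoid libraries. NK markers, of interest since NK cells express CD96, CD226 and TIGIT, summed to 26.7, 24.1 and 20.2, mostly through Klrb1c, while the defining Ncr1 was at 0.0, 0.169 and 1.47. The 7 myeloid markers summed to 1.44, 1.27 and 8.08, with Csf1r at 0.086, 0.060 and 0.133. Sums for 6 dendritic cell markers were 1.21, 1.14 and 2.61 and for 7 melanocyte markers 1.35, 1.49 and 3.35, with Pmel at 0.798, 0.835 and 1.49. Among these other markers, 1 CD8 marker (Cd8b1, limma adjusted p = 0.00255) and 1 myeloid marker (Itgam, limma adjusted p = 0.00578) were called higher. Neither stayed called in the fit with counting error (adjusted p = 0.0729 and 0.0545). As deposited, Cd8b1 was near the filter's minimum in the lymphoid libraries, at 0.639 and 1.05 FPKM, and at 2.76 in the tumour library. It passed the filter only through that tumour value, so its higher call is not independent of the filter. The part of other cell types in the receptor levels was not tested.

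Over the 3 libraries, the tested genes whose profiles came closest to that of Tigit were Slc18b1, Rpp40, Lilrb4, Tnfaip3 and Amd2, by root mean square distance between log2(scaled FPKM + 1) values centred on the lymphoid mean (0.0156 to 0.0833). Tnfaip3, which encodes the NF-kB inhibitor A20, was the most abundant of these, at 15.1, 14.4 and 110.6 scaled FPKM. Of these, Slc18b1 (0.441, 0.391 and 10.01 scaled FPKM) and Amd2 (0.0011, 0.00022 and 7.44) passed the filter through the tumour library alone, and Rpp40 rose from 0.900 and 0.835 to 13.6, so their likeness to Tigit depends on the pseudocount. Those closest to Cd226 were Pmm2, Tmem241, Slc44a2, Klrb1c and Mtcp1 (0.0072 to 0.0117). With 3 libraries such likeness reflects little more than a similar log2 change.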

How the data were processed

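RNA of 300000 cells was made into stranded libraries after removal of ribosomal RNA and sequenced as pairs of 75 bp, per the labels' protocols. The submitters' processing notes name mm10, kallisto and DESeq2 with no versions or roles. The deposited values were taken as FPKM: the unit is not stated, but per the file headers the tables have the style of Cufflinks output, and their sums differ between libraries. No program, annotation or filter behind them is named in the sources used here.

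Of 23832 rows, the one with the highest mean was kept for each of 252 repeated symbols. GENCODE M21 (GRCm38) gave coordinates and lengths. The product of FPKM and length that the most genes with 1 transcript shared (within 3%) was taken as 1 fragment: 87.1, 64.0 and 305.7. limma 3.58.1 in R 4.3.3 was fitted with a mean-variance trend, pseudocount 1 and Benjamini-Hochberg adjustment, and tested on simulated data, where it called more unchanged genes than the fit with counting error did. The counting-error fit adds the Poisson variance of the tumour fragments for 9680 genes with a length.

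The receptors, lists and tests were chosen with earlier results of these data known. The text names all 10 receptors, and of each list the largest called rises and falls (up to 2 of each), or its most abundant tested gene where none was called, besides defining markers of each cell type and genes that a result turns on, such as ligands. For likeness it names the 5 nearest genes of Tigit and of Cd226. Of the 114 list places, 111 had a row. Other settings were values as deposited, library totals, the filter dropped or raised to 5 FPKM (with size factors kept as they were, a choice made after first results), pseudocounts of 0.1 and 5, summed rows, each lymphoid library left out and, chosen after seeing the data, size factors from other gene sets. The result of 1 marker list is not reported here.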

Additional observations from a re-analysis of the deposited data

How the results depend on the processing

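The count of receptors called higher was 4 and became 2 with values as deposited and 2 with a minimum of 5 FPKM, where Lag3 and Cd200 were not tested. The count called lower was 0 and became 5 as deposited and 1 with size factors from all rows. Genes of the 4 related lists called higher went from 6 to 2 as deposited, 19 with library totals, 11 with no filter, 2 with a minimum of 5 FPKM and 2 with counting error added. Those called lower went from 0 to 38 as deposited and 5 with size factors from all rows. Over all tested genes, 1246 higher and 899 lower calls became 465 and 7620 as deposited, 4370 and 279 with library totals, 6362 and 512 with no filter, 211 and 191 with a minimum of 5 FPKM and 346 and 30 with counting error added. With size factors from all rows the lower calls were 1926.

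Directions turned for uncalled receptors: Pdcd1 (-0.69 as deposited, -0.14 with size factors from all rows and -0.05 without lymphoid library 2), Cd160 (-1.0 and -0.19 in the same first 2 settings), and Btla, Cd96 and Cd226 with library totals (0.30, 0.57 and 0.09). Without lymphoid library 1 the Pdcd1 change kept its direction (0.14). As deposited, directions also turned for Cd274 (-0.36), Tnfrsf4 (-0.19) and Tnfrsf18 (-0.12). With 1 added to both scaled values, the Tigit to Cd226 ratio was 12.2 and the Tigit to Cd96 ratio 8.75 times the lymphoid mean. Without either lymphoid library in turn, the tumour ratio was 13.1 to 14.2 times the remaining one for Tigit to Cd226, 9.28 to 10.2 for Tigit to Cd96 and 1.395 to 1.415 for Cd96 to Cd226. Leaving out a lymphoid library leaves no residual degree of freedom, so those settings give values and no calls. No paired analysis was possible because the tumour library carries no replicate number and stands alone in its group. The causes of these changes were not tested. Depth limits Havcr2 and Pdcd1 most, at about 1.0 and 7.0 tumour fragments.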

Other observations

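Some ratios chosen after seeing the data set the receptors against Foxp3, the defining gene of regulatory T cells, within each library, where no scaling enters. Tigit was at 0.758 and 0.902 of the Foxp3 FPKM in the lymphoid libraries and at 13.9 times it in the tumour library (95% counting interval 9.56 to 20.7). Ctla4 stood at 1.02 and 0.940 of Foxp3 and at 6.21 (interval 4.26 to 9.26), and Lag3 at 0.0905 and 0.138 and at 2.12 (interval 1.33 to 3.40). These ratios were higher in the tumour library than in either lymphoid library. They combine the receptor rises with the lower Foxp3 value, whose call ended in the limma fit with counting error (adjusted p = 0.220). In bulk RNA they do not measure receptor RNA in regulatory T cells, and the part of those cells was not tested. Set against Cd3e, Tigit went from 0.0681 and 0.0760 to 0.635, and Cd226 from 0.360 and 0.372 to 0.237 (interval 0.198 to 0.282).

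Among the regulatory T cell markers, Gpr83, a G protein-coupled receptor close to the filter's minimum, was the 1 called higher, at 0.963 and 0.660 scaled FPKM in the lymphoid libraries and 3.27 in the tumour library (log2 change 1.24, limma adjusted p = 0.0087, and 0.113 with counting error added). Il2ra was at 14.4, 13.5 and 11.7 scaled FPKM and Ikzf2 at 11.5, 9.64 and 7.63, and neither was called.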
